A study of Mus musculus with 4 samples.

Results

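The secreted Wnt antagonists are extracellular proteins that limit Wnt signalling, and 10 of their genes were followed here across sections of the embryonic mouse head: Sost, Sostdc1, Dkk1, Dkk2, Dkk3, Sfrp1, Sfrp2, Frzb, Wif1 and Notum. The rule that picks them is the gene symbol and uses no measured value, although the family was proposed with earlier results of these data known. All 10 were among the 19465 genes of the count matrices, each with UMIs (unique molecular identifiers, 1 per captured molecule) in all 4 libraries. The material was wild-type mouse whole head (C57BL/6J in the study's methods), cut coronally through the middle palate and read by Visium, which captures RNA from fixed sections on a grid of barcoded spots that each cover several cells. Embryonic days 14.5 (E14.5) and 15.5 (E15.5), the days around fusion of the secondary palate, were each read in 2 capture areas: 1 with a single section (replicate 1) and 1 with 3 sections in the same library (replicate 2,3,4). No group carried an allele or a treatment. The area was the unit of comparison, so each stage had 2 samples, and because the labels do not say which sections came from separate embryos the p-values measure only the spread between these areas.

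Wnt ligands are lipid-modified secreted proteins that bind Frizzled receptors together with the co-receptors Lrp5 and Lrp6, and the resulting stabilisation of β-catenin switches on target genes through TCF and LEF factors. The antagonists act at different steps. Sfrp1, Sfrp2, Frzb (also called Sfrp3) and Wif1 bind the ligands, Sost (sclerostin), its relative Sostdc1 (also called ectodin or Wise), Dkk1 and Dkk2 bind the co-receptors, and Notum is an enzyme that removes the lipid from the ligand. Dkk3 is a divergent Dickkopf relative whose part in Wnt signalling is unsettled. In the developing head, Wnt signalling shapes bone, tooth buds, skin appendages, palate and eye.

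The 4 areas held 6357 tissue spots in 8 sections, with 989 to 2310 spots and 15438992 to 109127953 UMIs an area. E14.5 replicate 1 was the shallowest, with a median of 6752 UMIs a spot against 45058.5 to 64051 in the others. Levels are given as CPM, the UMIs of a gene per 1000000 UMIs of all genes in the same spots, and are compared within a gene only. The sections did not hold the same mix of tissue: the summed level of 9 bone markers ran from 591 to 1419 CPM in the E14.5 sections and from 1041 to 2746 CPM in the E15.5 sections, and that of 10 neuron markers from 1996 to 5063 CPM and from 663 to 3436 CPM. Areas shared 540 to 1388 barcodes, which are grid positions and not shared cells.

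The members covered a wide range of levels, from the sparsely read Sost and Dkk1 to the abundantly read Sfrp1, Sfrp2 and Dkk3. In the order E14.5 replicate 1, E14.5 replicate 2,3,4, E15.5 replicate 1 and E15.5 replicate 2,3,4, Sost rested on 13, 202, 181 and 145 UMIs in all, and Dkk1 on 13, 56, 103 and 114. These counts limit what any map of Sost or Dkk1 can show, above all in the shallow area. Wif1 rested on 85, 588, 628 and 1144 UMIs, Notum on 65, 456, 403 and 586, and Frzb on 215, 1756, 1274 and 2526. The other 5 members had at least 911 UMIs in every area. How patchy a gene was is summarised by Moran's I, which is near 0 when neighbouring spots are unrelated and rises toward 1 when they are alike. It was 0.50 to 0.84 over the 4 areas for Dkk3, 0.31 to 0.78 for Sostdc1, 0.32 to 0.78 for Sfrp2 and 0.38 to 0.68 for Sfrp1, against a median over 10947 genes of 0.08 to 0.17. For Sost, Dkk1, Wif1 and Notum it was between -0.0055 and 0.0052 in the shallow area and between 0.03 and 0.27 in the deeper areas, so patchiness and depth cannot be told apart for these 4. In the GENCODE M21 annotation of the same build (mm10), the genes on the plus strand lie with Sostdc1 at chr12:36314139-36318452, Dkk2 at chr3:132085292-132180304, Sfrp1 at chr8:23411502-23449632, Sfrp2 at chr3:83766321-83774316 and Wif1 at chr10:121033960-121100650, and those on the minus strand with Sost at chr11:101962458-101967015, Dkk1 at chr19:30545863-30549665, Dkk3 at chr7:112116017-112159057, Frzb at chr2:80411970-80447625 and Notum at chr11:120653788-120661175, all of them protein-coding.

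**Figure D1:**
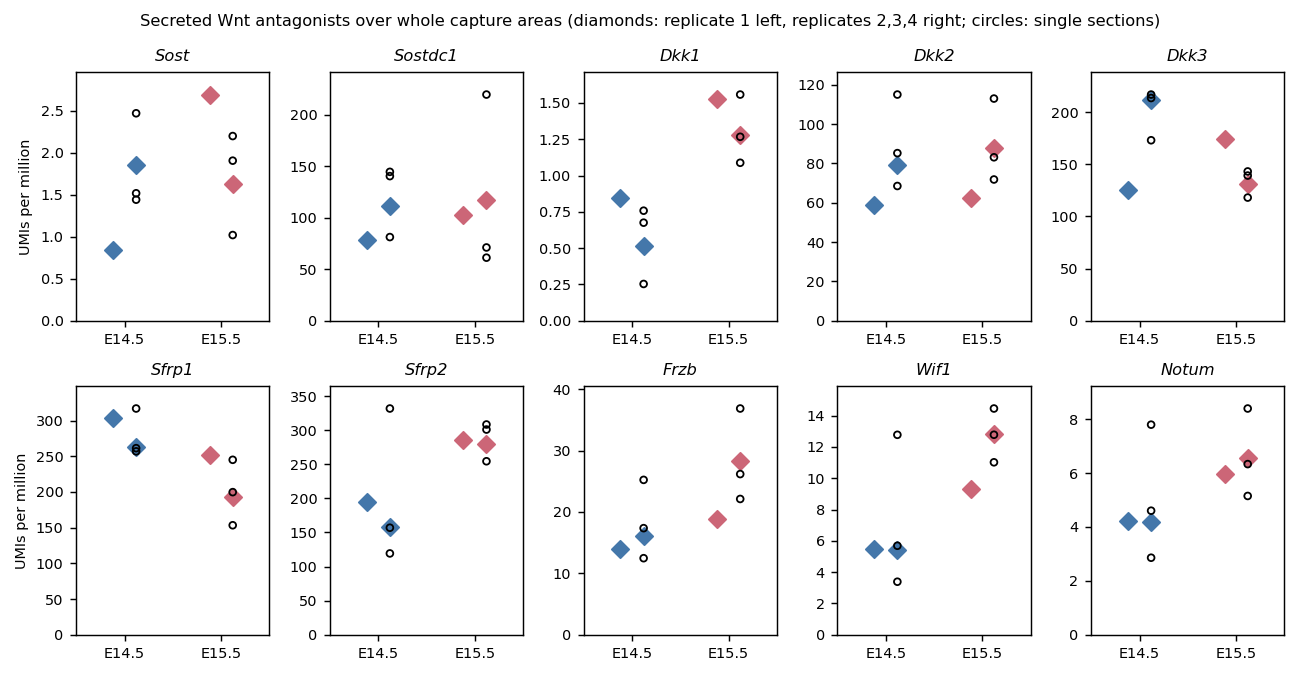
Level of each antagonist over whole capture areas in CPM (vertical axis, from 0) at both stages; filled diamonds are areas (replicate 1 left, replicate 2,3,4 right) and open circles are the sections of the areas with 3. The E15.5 diamonds lie above both E14.5 diamonds for Dkk1, Sfrp2, Frzb, Wif1 and Notum and below them for Sfrp1, and single sections spread widely for Sostdc1, from 61.3 to 220 at E15.5.

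To ask where in the head each antagonist was read, the tissue was described by 13 lists of marker genes. For each list, the 10% of an area's spots with the highest mean marker score were called marker-rich, and the summed UMIs of these spots were compared with those of all other spots of the same area, with the area as a block. No antagonist was in any list. A marker-rich spot is not a cell type: it can hold several kinds of cells, and 0% to 43.2% of the spots of a list were also in any given other list. In bulk sums such as these, fewer cells of a type and less RNA per cell cannot be told apart. Of the 130 pairs of antagonist and list, 34 were higher and 41 lower in the marker-rich spots at an adjusted p under 0.1, against 20.8% and 22.2% of all gene and list pairs. Of these, 20 of the higher and 23 of the lower pairs were called in the same direction under all 12 alternative settings.

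**Figure D2:**
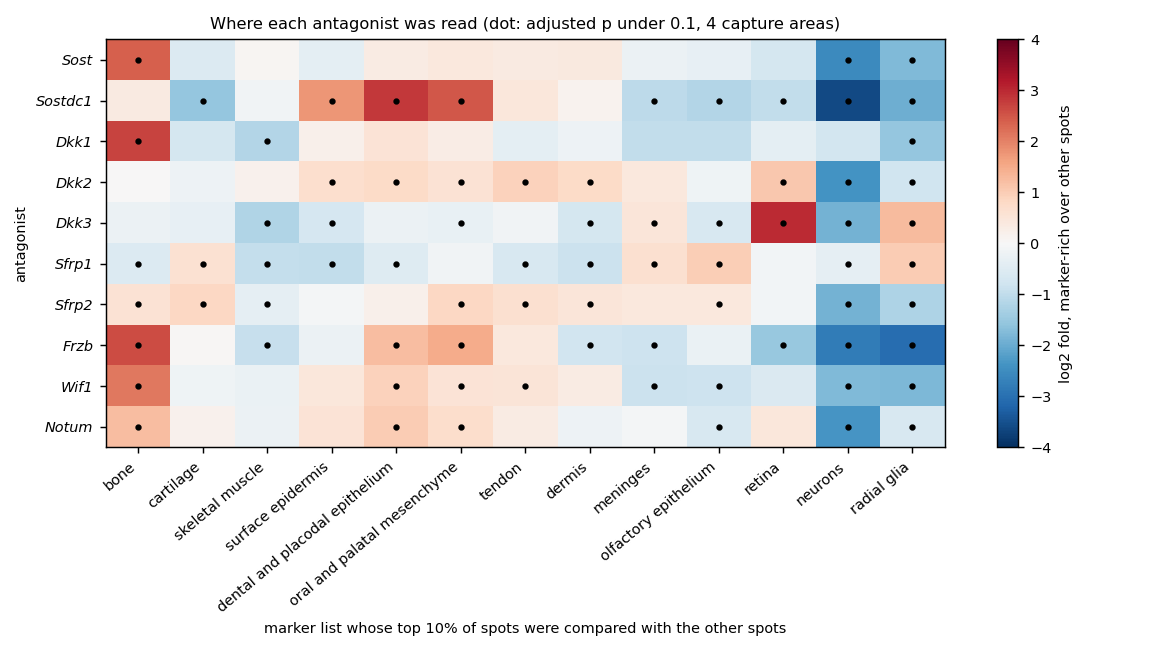
Colour gives the log2 fold of marker-rich over other spots for each antagonist (rows) and marker list (columns), fitted over 4 capture areas; a dot marks an adjusted p under 0.1. Sost, Dkk1, Frzb and Wif1 are highest in the bone column, Sostdc1 in the dental and oral columns and Dkk3 in the retina column, and 9 of 10 rows are lower in the neuron column.

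Sost, Dkk1, Frzb and Wif1 had their highest levels of the 13 lists in bone. In spots rich in the markers of bone-forming cells, 6 of 10 members were higher and 1 was lower, against 24% and 27.2% of all genes. Sost, best known as the brake on bone formation made by mature osteocytes, was read at 5.04, 5.21, 10.6 and 4.77 CPM in the bone-rich spots of the 4 areas and at 0.49, 1.33, 1.79 and 1.23 CPM in the other spots. The groups did not overlap, the log2 fold was 2.39 (SE 0.22, adjusted p = 0.000256), and the bone-rich values rested on 6, 77, 73 and 48 UMIs. Dkk1, which blocks the co-receptors Lrp5 and Lrp6, was at 5.88, 1.62, 5.96 and 4.67 CPM in bone-rich spots and at 0.42, 0.34, 1.03 and 0.85 CPM elsewhere, on 7, 24, 41 and 47 UMIs in the bone-rich spots. Every bone-rich value lay above every other value here too (log2 fold 2.69, SE 0.24, adjusted p = 0.000241).

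The ligand-binding Frzb and Wif1 showed the same placement on more UMIs. Frzb stood at 57.1, 61.0, 75.0 and 86.7 CPM in bone-rich spots against 10.3, 9.04, 12.5 and 20.9 CPM in the others, a log2 fold of 2.60 (SE 0.12, adjusted p = 1.98e-05). Wif1 stood at 19.3, 14.1, 31.2 and 35.5 CPM against 4.35, 4.03, 6.83 and 9.95 CPM, a log2 fold of 2.11 (SE 0.11, adjusted p = 3.63e-05). Both were above the other spots in all 4 areas with no overlap. For Frzb, 31.6% to 51.4% of an area's UMIs fell in this 10% of its spots. Notum, the ligand deacylase, was at 10.1, 7.37, 11.3 and 12.4 CPM against 3.72, 3.68, 5.38 and 5.83 CPM (log2 fold 1.24, SE 0.13, adjusted p = 0.000503), again without overlap. Sfrp2 was called higher by a smaller margin (log2 fold 0.57, SE 0.16, adjusted p = 0.0233), and its raw CPM were 397, 196, 366 and 263 in bone-rich against 178, 151, 277 and 282 in other spots, so that in E15.5 replicate 2,3,4 the unscaled value was not above. Sfrp1 was the 1 member lower in bone-rich spots, at 136, 227, 157 and 127 CPM against 317, 269, 263 and 201 CPM (log2 fold -0.56, SE 0.15, adjusted p = 0.0218). These 7 calls kept their direction and their side of the threshold in all 12 alternatives. Sostdc1, Dkk2 and Dkk3 were not called (log2 folds of -0.23 to 0.37).

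The bases just before the start of transcription are shown for Sost, Dkk1 and Wif1, which were among the antagonists with their highest levels in bone-rich spots. The sequences are from RefSeq on GRCm38.p6, on the strand of the gene, cut where the gene begins in the GENCODE M21 annotation, at chr11:101967016-101967265 (minus strand) for Sost, chr19:30549666-30549746 (minus strand) for Dkk1 and chr10:121033754-121033959 (plus strand) for Wif1, and lie upstream of the gene and outside its exons. Capitals mark the letters TGTGGT, bound by the bone factor Runx2 and its relatives, or CTTTGA, bound by TCF and LEF factors, on either strand, and fall within the printed stretch of Dkk1 alone.
Sost: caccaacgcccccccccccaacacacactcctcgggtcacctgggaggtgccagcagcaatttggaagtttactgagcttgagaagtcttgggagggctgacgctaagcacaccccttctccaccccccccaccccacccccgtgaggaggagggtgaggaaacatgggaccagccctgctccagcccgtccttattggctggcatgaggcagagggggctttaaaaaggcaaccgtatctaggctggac
Dkk1: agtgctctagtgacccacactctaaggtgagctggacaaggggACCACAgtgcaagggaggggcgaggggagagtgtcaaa
Wif1: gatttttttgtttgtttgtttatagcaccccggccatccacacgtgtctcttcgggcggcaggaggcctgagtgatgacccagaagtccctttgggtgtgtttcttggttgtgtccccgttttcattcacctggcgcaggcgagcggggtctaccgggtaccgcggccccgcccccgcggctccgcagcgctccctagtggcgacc

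The search covered the 250 bases before the RefSeq start, which were given for 6 members (Sost, Dkk1, Dkk2, Sfrp2, Frzb and Wif1), and included bases that GENCODE places inside the gene and that are not printed. For Frzb, 229 of the 250 bases lie inside the gene in GENCODE, so none are shown. Dkk1 had 1 TGTGGT on the other strand, 207 bases before the start, and 2 CTTTGA, 117 bases before the start on the strand of the gene and 174 bases before it on the other strand. Frzb had 1 CTTTGA on the other strand, 95 bases before the start. The windows of Sost, Wif1, Dkk2 and Sfrp2 held neither, which says only that these letters are not in this window. Among 32851 promoter windows of this length, 14% held TGTGGT and 13.8% held CTTTGA, and a match is a description of letters, not a site. The promoters of Sostdc1, Dkk3, Sfrp1 and Notum are named only.

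How sharply the antagonists were tied to bone was read from rings of spots at increasing distance from the nearest bone-rich spot, as the level of a ring over the level of its whole area. Frzb averaged 3.73 times the area's level in bone-rich spots, 1.65 in the next spots, 0.92 at 2 spot spacings and 0.28 at 5 or more. Dkk1 averaged 4.42, then 1.12, 1.20 and 0.36 at the same distances, and Sost 3.92, then 1.45, 0.79 and 0.36. Wif1 averaged 3.06, then 1.44, 1.05 and 0.47. All 4 were thus highest in the bone-rich spots themselves in each area and fell off within 1 to 2 spots. Notum fell more slowly, from 1.98 in bone-rich spots to 1.72 beside them, and Sfrp2 and Sostdc1 averaged more beside bone (1.56 and 1.84) than in it (1.38 and 1.29). Sfrp1 ran the other way, from 0.65 in bone to 1.26 at 5 or more spacings.

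**Figure D3:**
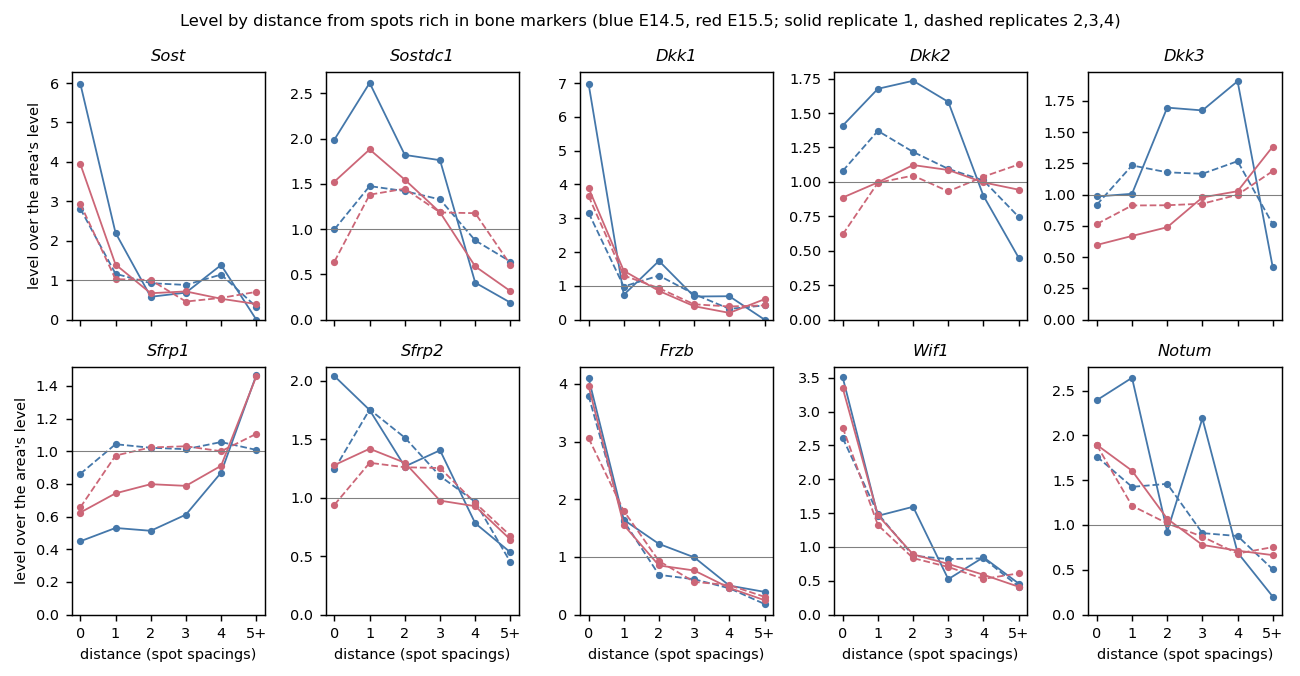
Level of each antagonist over its capture area's own level (vertical axis, 1 is the area's level) against distance from the nearest spot rich in bone markers, in spot spacings (horizontal axis; 5+ is 5 or more); 1 line for each of the 4 capture areas. Sost, Dkk1, Frzb and Wif1 peak at distance 0 in every area, Sostdc1 averages 1.84 at distance 1, and Sfrp1 is lowest at distance 0 in every area.

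Across spots, the genes most like Frzb were genes of bone. The 3 genes whose pattern was most like that of Frzb among 10947 were Alpl, an early enzyme of mineralising cells (mean Pearson r over the 4 areas 0.48), Runx2, the master factor of the osteoblast lineage (0.48), and Ibsp, a bone matrix protein (0.47), of which Alpl and Ibsp are on the bone list. Wif1 was nearest to the protease gene Pcsk6 (0.30). These are descriptions over spots that share a library and differ in depth. No gene reached a mean r of 0.3 with Sost, Dkk1 or Notum, for which the highest values were 0.22, 0.19 and 0.18. Tcf7, a TCF family member that is itself a Wnt target, was the feedback target most like Frzb (0.22).

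Sostdc1 was highest around the teeth and mouth. In spots rich in markers of dental and placodal epithelium, the thickened epithelium that forms tooth buds and hair placodes, it was read at 472, 469, 485 and 470 CPM in the 4 areas, against 48.9, 79.8, 62.1 and 71.4 CPM in the other spots. The marker-rich values were nearly the same in all areas and at both stages. The log2 fold was 2.83 (SE 0.12, adjusted p = 3.88e-05), and 34.3% to 46% of an area's Sostdc1 UMIs lay in this 10% of its spots. In spots rich in markers of oral and palatal mesenchyme the values were 408, 376, 392 and 378 CPM against 47.9, 79.5, 66.4 and 79.3 CPM (log2 fold 2.47, SE 0.15, adjusted p = 0.000958), and the dental and the oral list shared 32.2% of their spots. In surface epidermis the fitted excess was smaller and more variable, at 474, 331, 177 and 260 CPM against 58.5, 89.9, 95.8 and 103 CPM (log2 fold 1.75, SE 0.28, adjusted p = 0.0018). In E14.5 replicate 1 the epidermis-rich value was as high as the dental-rich one. The dental and the epidermis list shared 43.2% of their spots, so their excesses are not separate. By distance, Sostdc1 fell from a mean of 4.74 times the area's level in dental-rich spots to 1.52 beside them, 0.87 at 2 spacings and 0.27 at 5 or more. Its 3 most similar genes were the epithelial keratins Krt17 (mean r 0.59, itself a marker on the dental list), Krt14 (0.55) and Krt5 (0.54), both markers on the epidermis list.

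Other antagonists were raised in the same places. Dental-rich spots had 5 of 10 members higher, against 19.1% of all genes: besides Sostdc1 these were Frzb (log2 fold 1.22, SE 0.24, adjusted p = 0.00722), Notum (1.01, SE 0.29, adjusted p = 0.0324), Wif1 (0.93, SE 0.24, adjusted p = 0.0234) and Dkk2 (0.77, SE 0.25, adjusted p = 0.0527). Sostdc1 and Frzb kept the call without any 1 area. Without E14.5 replicate 2,3,4 the adjusted p rose to 0.150 for Notum, 0.118 for Wif1 and 0.176 for Dkk2, and without E15.5 replicate 1 it was 0.133 for Notum. For Notum the levels in dental-rich spots were 12.1, 9.55, 14 and 6.56 CPM against 3.62, 3.70, 5.14 and 6.58 CPM, so that E15.5 replicate 2,3,4 showed no difference. Sfrp1 was lower there (log2 fold -0.52, SE 0.15, adjusted p = 0.0299, and 0.130 without E15.5 replicate 1), 1 of 10 against 21.4% of all genes. Sost, Dkk1, Dkk3 and Sfrp2 were not called (-0.25 to 0.54).

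Spots rich in oral and palatal mesenchyme had 6 of 10 members higher, against 16.7% of all genes. Sfrp2, which binds Wnt ligands and is common in facial mesenchyme, was at 404, 267, 526 and 363 CPM against 175, 144, 256 and 268 CPM (log2 fold 0.84, SE 0.12, adjusted p = 0.00453), above the other spots of its own area each time. Frzb was at 48.9, 33.2, 55.9 and 48.9 CPM against 10.7, 14, 14.3 and 25.3 CPM (log2 fold 1.47, SE 0.21, adjusted p = 0.00426), and Dkk2 at 102, 130, 82.9 and 107 CPM against 55.0, 73.0, 60.1 and 85.2 CPM (log2 fold 0.57, SE 0.11, adjusted p = 0.0111). These 3 calls and that of Sostdc1 held without any 1 area. Notum (log2 fold 0.70, adjusted p = 0.0683) and Wif1 (0.56, adjusted p = 0.0473) did not: without E14.5 replicate 2,3,4 their adjusted p were 0.178 and 0.152, without E15.5 replicate 1 they were 0.262 and 0.202, and for Notum it was 0.113 without E14.5 replicate 1. Dkk3 was lower (log2 fold -0.30, adjusted p = 0.0849), 1 of 10 against 22% of all genes. This call was made in only 2 of the 12 alternatives. It was lost under DESeq2, without TMM scaling, without the filter on low counts, at a threshold of 0.05, in the top 5% of spots, with spots ranked by share of UMIs, without the area block, and without E14.5 replicate 1 (adjusted p = 0.188), E14.5 replicate 2,3,4 (0.175) or E15.5 replicate 1 (0.276). Sost, Dkk1 and Sfrp1 were not called (-0.13 to 0.43).

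In the connective tissues outside bone, Sfrp2 was higher in cartilage-rich spots, Dkk2 was higher in tendon- and dermis-rich spots and Sfrp1 was lower in the latter 2. Sfrp2 stood in cartilage-rich spots at 383, 252, 455 and 445 CPM against 178, 146, 267 and 260 CPM (log2 fold 0.83, SE 0.07, adjusted p = 0.000929). All 4 areas showed a similar ratio. Sfrp1 was also higher in cartilage-rich spots (log2 fold 0.60, SE 0.13, adjusted p = 0.0208, and 0.114 without E14.5 replicate 2,3,4), which made 2 of 10 members against 13.9% of all genes, while Sostdc1 was lower (log2 fold -1.55, SE 0.17, adjusted p = 0.00214), 1 of 10 against 17.6%. The other 7, Dkk2 among them, were not called (-0.71 to 0.19). Dkk2, a co-receptor ligand of the Dickkopf family, was higher in tendon-rich spots at 155, 116, 96.1 and 134 CPM against 51.7, 74.4, 58.7 and 82.4 CPM (log2 fold 0.92, SE 0.14, adjusted p = 0.00246). It was higher in dermis-rich spots as well, at 118, 127, 86.1 and 134 CPM against 53.8, 74.9, 60.2 and 83.5 CPM (log2 fold 0.76, SE 0.09, adjusted p = 0.000777). The dermis call of Dkk2 was lost when spots were ranked by the share of their UMIs in the markers. Its lowest log2 fold over the alternatives was 0.11. In tendon-rich spots 3 of 10 members were higher, against 24.7% of all genes, but Sfrp2 and Wif1 lost the call without E14.5 replicate 2,3,4 (adjusted p = 0.153 and 0.214) and without E15.5 replicate 1 (0.170 and 0.283), and both fell below 0 (-0.15 and -0.093) when spots were ranked by the share of their UMIs in the markers. Sfrp1 was the 1 member lower in tendon-rich spots, against 23.4% of all genes, at 180, 199, 134 and 130 CPM against 313, 272, 266 and 200 CPM (log2 fold -0.66, SE 0.10, adjusted p = 0.00279). Sost, Sostdc1, Dkk1, Dkk3, Frzb and Notum were not called (-0.39 to 0.45).

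In dermis-rich spots 2 of 10 members were higher and 3 were lower, against 28.3% and 27.7% of all genes. Besides Dkk2, Sfrp2 was higher (log2 fold 0.49, SE 0.19, adjusted p = 0.0677), a call lost without E14.5 replicate 1 (adjusted p = 0.176) or E14.5 replicate 2,3,4 (0.275) and with a value of -0.10 when spots were ranked by share of UMIs. Sfrp1 was lower, at 180, 176, 136 and 95.2 CPM against 314, 271, 264 and 202 CPM (log2 fold -0.86, SE 0.09, adjusted p = 0.000279), below the other spots in every area. Dkk3 (-0.71, SE 0.17, adjusted p = 0.0131) and Frzb (-0.76, SE 0.26, adjusted p = 0.0444) were lower too, Frzb not without E15.5 replicate 1 (adjusted p = 0.130). Sost, Sostdc1, Dkk1, Wif1 and Notum were not called (-0.21 to 0.39). In epidermis-rich spots 2 of 10 members were higher, Sostdc1 and Dkk2, and 2 were lower, Sfrp1 and Dkk3, against 25.3% and 23.6% of all genes. Dkk2 (log2 fold 0.68, SE 0.19, adjusted p = 0.0218) was not called without E14.5 replicate 2,3,4 (adjusted p = 0.119). Sfrp1 was at 136, 191, 105 and 98.0 CPM against 312, 271, 265 and 202 CPM (log2 fold -1.0, SE 0.13, adjusted p = 0.000705), and Dkk3 differed by -0.68 (SE 0.18, adjusted p = 0.0183). Sost, Dkk1, Sfrp2, Frzb, Wif1 and Notum were not called there (-0.40 to 0.55). In tendon, dermis and epidermis the shares of members called were close to those of all genes, except for the lower share in tendon.

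Over all spots Sfrp2 was most like Eln (mean r 0.61), which encodes elastin, the mesenchymal transcription factor Prrx1 (0.605) and the fibrillin Fbn2 (0.57), and Dkk2 was most like Fbn2 (0.46), the fibrillar collagen Col5a1 (0.46) and the matrix proteoglycan Dcn (0.44). Among pairs of antagonists the highest mean r were 0.33 for Dkk2 with Dkk3, 0.30 for Sostdc1 with Frzb and 0.28 for Dkk2 with Sfrp2, and the lowest was -0.09 for Sostdc1 with Sfrp1. In muscle-rich spots no member was higher (0 of 10 by edgeR, 0 at an unadjusted p under 0.05 and 0 by DESeq2), against 20.1% of all genes, and 5 were lower, against 24.6%. Sfrp1 was lower there, at 110, 148, 133 and 114 CPM against 313, 282, 270 and 206 CPM (log2 fold -0.95, SE 0.13, adjusted p = 0.00104), and Dkk3 by a log2 fold of -1.21 (SE 0.26, adjusted p = 0.00938). Dkk1 (-1.18, SE 0.36), Frzb (-0.92, SE 0.25) and Sfrp2 (-0.36, SE 0.15) were lower as well. Frzb lost the call without E15.5 replicate 1 (adjusted p = 0.135), and Dkk1 and Sfrp2 lost it without E14.5 replicate 2,3,4 (0.112 and 0.226), E15.5 replicate 1 (0.154 and 0.180) or E15.5 replicate 2,3,4 (0.157 and 0.196). Sost, Sostdc1, Dkk2, Wif1 and Notum were not called (-0.26 to 0.17).

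Dkk3 was highest in the retina. In spots rich in retinal markers it was read at 668, 864, 940 and 442 CPM, against 57.1, 136, 77.2 and 103 CPM in the other spots, a log2 fold of 2.99 (SE 0.27, adjusted p = 0.00169) with no overlap. The retina-rich spots held 28.2% to 60.6% of an area's Dkk3 UMIs. Dkk2 was the other member higher there, at 138, 147, 109 and 152 CPM against 49.1, 71.2, 56.8 and 82.1 CPM (log2 fold 1.09, SE 0.09, adjusted p = 0.00147), which made 2 of 10 members against 11.3% of all genes. The genes most like Dkk3 were the retinal transcription factors Atoh7 (mean r 0.71), Rax (0.68) and Six6 (0.66), all 3 of them on the retina list. Frzb, at 7.0, 5.0, 5.9 and 12.6 CPM against 14.8, 17.4, 20.6 and 29.8 CPM, was lower in retina-rich spots (log2 fold -1.51, SE 0.15, adjusted p = 0.00214). So was Sostdc1, at 55.2, 58.8, 41.6 and 65.6 CPM against 81.4, 118, 110 and 122 CPM (log2 fold -0.98, SE 0.12, adjusted p = 0.00434), which made 2 of 10 lower against 12.7% of all genes. Sost, Dkk1, Sfrp1, Sfrp2, Wif1 and Notum were not called (-0.71 to 0.44).

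**Figure D4:**
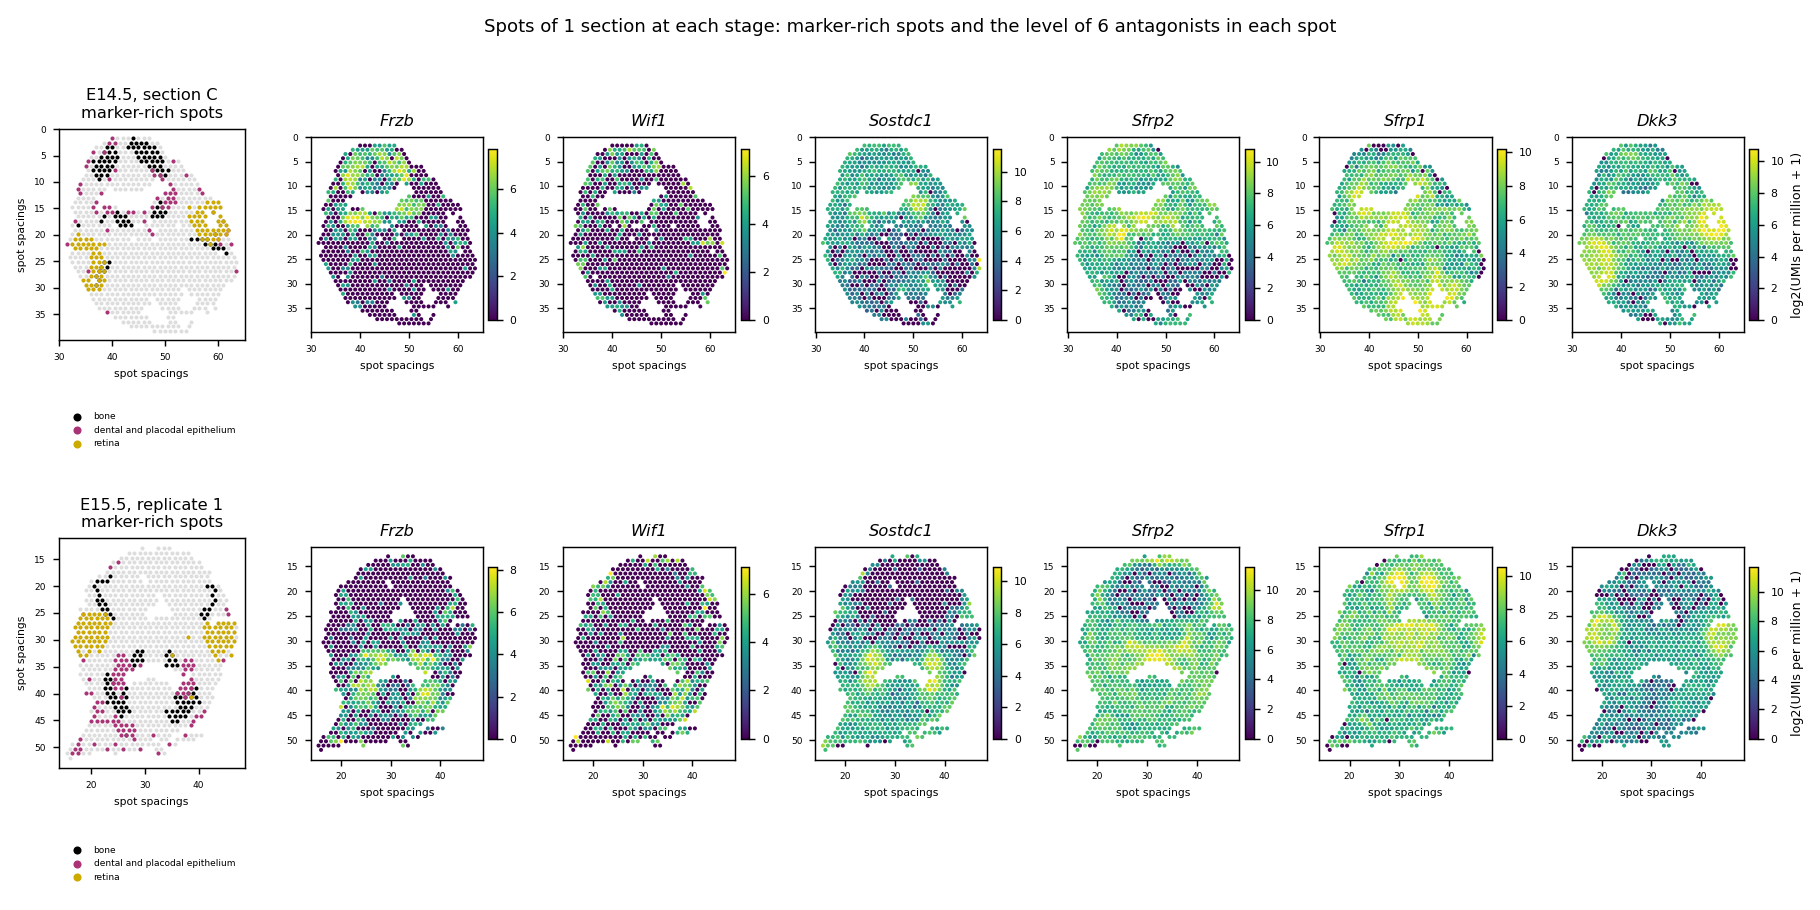
Maps of section C of E14.5 replicate 2,3,4 (top row) and of E15.5 replicate 1 (bottom row) in spot spacings; the first panel of a row shows spots rich in bone, dental and retina markers, and the others the level of 6 antagonists in each spot as log2(CPM + 1). The E14.5 section lies the other way up, with the jaw at the top. Frzb and Wif1 are brightest around the mouth and jaw near the bone-rich spots, Sostdc1 at the sides of the mouth, Dkk3 over the eyes, and most brain spots are dark except for Sfrp1.

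In the brain, most antagonists were lower than elsewhere. Spots rich in neuron markers had 9 of 10 members lower, against 37.8% of all genes, and none higher (0 by edgeR, 0 at an unadjusted p under 0.05 and 0 by DESeq2), against 35.7%. Sostdc1 was at 11.2, 15.7, 3.17 and 6.84 CPM in neuron-rich spots and at 102, 121, 113 and 125 CPM elsewhere (log2 fold -3.61, SE 0.37, adjusted p = 0.000851). Frzb was at 4.98, 2.22, 1.51 and 3.00 CPM against 17.1, 17.5, 20.8 and 30.2 CPM (log2 fold -2.80, SE 0.33, adjusted p = 0.00116). The neuron-rich values of both genes were below every other value. Dkk2 (log2 fold -2.39), Notum (-2.37), Dkk3 (-1.90), Sfrp2 (-1.88) and Wif1 (-1.76) were lower with adjusted p of 0.000617 to 0.00766. Sost had 10 UMIs in the neuron-rich spots of E14.5 replicate 2,3,4 and 0 in the other 3 areas. Its fitted fold therefore depends on the handling of zeros, and its call ended without E15.5 replicate 1 (adjusted p = 0.116). Dkk1 was the member not called, on 1 to 6 UMIs an area in these spots. Sfrp1 differed least among the 9, at 232, 191, 203 and 128 CPM against 328, 271, 258 and 198 CPM (log2 fold -0.35, SE 0.09, adjusted p = 0.0144), and was above 0 (log2 fold 0.089) when the top 20% of spots were taken.

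Radial glia are the dividing stem cells that line the brain ventricles, and Sfrp1 and Dkk3 were the members higher in spots rich in their markers. Sfrp1 was read at 578, 338, 538 and 293 CPM in radial glia-rich spots and at 215, 253, 211 and 184 CPM in the others (log2 fold 1.0, SE 0.20, adjusted p = 0.00729). Dkk3 was higher by a larger fold (log2 fold 1.27, SE 0.23, adjusted p = 0.00431), so that 2 of 10 members were higher, against 28.4% of all genes, and the other 8 were lower, against 31.4%. These 8 ranged from -3.03 for Frzb to -0.64 for Notum, with Sostdc1 at -1.97, Wif1 at -1.80, Sost at -1.78, Dkk1 at -1.56, Sfrp2 at -1.25 and Dkk2 at -0.79 between them. Dkk1 was not called without E15.5 replicate 1 (adjusted p = 0.131) and Notum without E14.5 replicate 2,3,4 (0.147). Frzb was lowest relative to the rest, at 2.13, 2.24, 2.02 and 4.31 CPM against 17.7, 18.1, 21.3 and 30.4 CPM (log2 fold -3.03, SE 0.15, adjusted p = 0.000179). Retina and radial glia share markers such as Pax6, and the 2 lists had 28.9% of their spots in common. In spots rich in radial glia markers and no others, Dkk3 averaged only 0.28 times its area's level.

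Levels were also read in spots rich in 1 list and no other. In the 282 spots rich in radial glia markers alone, Dkk3 stood at 0.32, 0.30, 0.27 and 0.22 times its area's level, below 1 in every area. In the 233 spots rich in retina markers alone it stood at 4.50, 4.13, 4.42 and 2.77 times. Sfrp1 stayed above 1 in the spots rich in radial glia markers alone, at 2.40, 1.25, 3.15 and 1.76 times. In the 346 spots rich in bone markers alone, Frzb was at 6.21, 4.17, 3.81 and 3.26 times and Wif1 at 2.91, 3.20, 3.95 and 2.96 times the area's level, both above their ratio over all bone-rich spots in 3 of 4 areas. Dkk1 was at 7.60, 3.22, 5.08 and 3.65 times on 2, 13, 26 and 33 UMIs, and Sost at 2.95, 5.79 and 3.04 times in the deeper areas with 0 UMIs in the shallow area. Bone-alone spots did not have the highest mean ratio for either. Sost averaged 2.94 there, 5.81 in tendon-alone spots (1.22 to 18.9 over the areas) and 3.16 in oral-alone spots (1.18 to 7.81). Dkk1 averaged 4.89 in bone-alone and 5.22 in epidermis-alone spots (0.94 to 16.1). Both genes had only 13 UMIs in the whole shallow area, and these ranges were wide. A single area can set such a mean, so the means do not rank the lists. Sostdc1 was at 1.41, 2.28, 8.25 and 4.51 times in the 85 spots rich in dental markers alone, and Sfrp2 at 4.06, 3.19, 2.98 and 1.75 times in the 148 spots rich in oral and palatal mesenchyme markers alone. These ratios have no test.

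In spots rich in olfactory epithelium or meninges markers, Sfrp1 was higher and Sostdc1 and Wif1 were lower. The meninges are the coverings of the brain. These 2 lists shared 30.7% of their spots. The cartilage list shared 35.4% with the olfactory and 28.1% with the meninges list, so differences in the 3 are not separate. Sfrp1 was at 390, 515, 500 and 434 CPM in spots rich in olfactory epithelium markers against 292, 233.7, 221 and 168 CPM in the others (log2 fold 0.99, SE 0.15, adjusted p = 0.00386), above in all 4 areas. With Sfrp2, which was not called without E14.5 replicate 2,3,4 (adjusted p = 0.192) or E15.5 replicate 1 (0.221), it made 2 of 10 members higher, against 14.9% of all genes. Another 4 were lower, against 12.7%: Wif1 (log2 fold -0.83, SE 0.13, adjusted p = 0.00434), Dkk3 (-0.63, SE 0.08, adjusted p = 0.00157), Sostdc1 (-1.17, SE 0.27, adjusted p = 0.0229) and Notum (-0.64, SE 0.21, adjusted p = 0.0774). Sostdc1 was at 83.9, 40.7, 56.5 and 34.7 CPM against 77.7, 120, 108 and 125 CPM, so that E14.5 replicate 1 did not share the deficit. Sostdc1 and Notum were not called without E14.5 replicate 2,3,4 (adjusted p = 0.125 and 0.264), and Notum was not without E14.5 replicate 1 (0.103) or E15.5 replicate 2,3,4 (0.145). Sost, Dkk1, Dkk2 and Frzb were not called (-0.99 to -0.18).

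In meninges-rich spots Dkk3 (log2 fold 0.47, SE 0.07, adjusted p = 0.00918) and Sfrp1 (0.63, SE 0.12, adjusted p = 0.0231) were higher, 2 of 10 against 8.48% of all genes. Sfrp1 lost this call without E14.5 replicate 2,3,4 (adjusted p = 0.127) or E15.5 replicate 2,3,4 (0.102), and the Dkk3 difference turned to -0.97 when spots were ranked by the share of their UMIs in the markers. Lower were 3 of 10, against 7.45% of all genes. Sostdc1 was at 47.8, 64.1, 52.0 and 53.4 CPM against 82.7, 118, 108 and 124 CPM (log2 fold -1.05, SE 0.09, adjusted p = 0.00239), and this call held in all 12 alternatives. Wif1 (-0.87, SE 0.19, adjusted p = 0.0403) and Frzb (-0.82, SE 0.23, adjusted p = 0.0769) lost the call without E14.5 replicate 2,3,4 (adjusted p = 0.20 and 0.328), E15.5 replicate 1 (0.137 and 0.238) or E15.5 replicate 2,3,4 (0.161 and 0.246). Sost, Dkk1, Dkk2, Sfrp2 and Notum were not called (-0.98 to 0.42). Over all spots Sfrp1 was most like Sox9 (mean r 0.44), a factor of radial glia and cartilage, the forebrain and retina factor Lhx2 (0.41, on the radial glia list) and Aldoc (0.405), an enzyme of astroglia.

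The rest of the Wnt pathway was read in the same spots. Of 9 feedback targets, genes that Wnt signalling itself switches on, 8 were higher in dental-rich spots (Axin2, Lef1, Nkd1, Nkd2, Sp5, Znrf3, Rnf43 and Apcdd1), for example Lef1 by a log2 fold of 1.79 (SE 0.07) and Axin2 by 0.87 (SE 0.09). The same 8 were higher in epidermis-rich and in dermis-rich spots, so the count was not particular to the dental list. The dental list shared 43.2% of its spots with the epidermis list and 15.9% with the dermis list. The epidermis and dermis lists shared 34.6%, so the repeats are not independent. The shares of all genes higher were 19.1%, 25.3% and 28.3% in these 3 lists. In oral and palatal mesenchyme-rich spots 5 of 9 were higher, against 16.7%. In bone-rich spots 2 of 9 were higher, against 24%: Tcf7 by 2.58 (SE 0.22) and Znrf3 by 0.36 (SE 0.08), while Axin2 differed by 0.003 (SE 0.09) and Apcdd1 was lower. Of the ligands tested, 10 of 16 were higher in dental-rich, 11 of 16 in epidermis-rich, 13 of 16 in dermis-rich and 5 of 15 in bone-rich spots. The 10 in dental-rich spots include Wnt10a and Wnt10b, markers on the dental list, whose place in the count was set by the choice of spots. Wnt10a was higher by 2.41 (SE 0.22) in dental-rich spots, where it is a marker on the list itself, and by 0.58 (SE 0.17) in bone-rich spots. Of 17 receptors and co-receptors, 11 were higher in dental-rich, 10 in epidermis-rich, 10 in dermis-rich and 9 in bone-rich spots. The highest count was in tendon-rich spots, with 12, and oral-rich spots had 10 and cartilage-rich spots 9. In bone-rich spots the co-receptor Lrp5, the target of Sost and Dkk1, was higher by 1.20 (SE 0.08). Of 5 further genes listed as secreted antagonists, 1 was higher and 2 were lower in bone-rich spots, and 3 were higher and 1 lower in dental-rich spots. Sfrp4 was the 1 higher in bone-rich spots (log2 fold 2.14, SE 0.35, adjusted p = 0.00278) and was higher in cartilage-rich spots too. Dkk4 (3.26, SE 0.21), Sfrp5 and Dkkl1 were the 3 in dental-rich spots. All 3 were also higher in epidermis-rich and dermis-rich spots. Over spots, the mean r of Sostdc1 was 0.36 with Lef1, 0.26 with Axin2 and 0.26 with Sp5, and that of Sfrp1 with Apcdd1 was -0.20.

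Between the stages, no antagonist changed by the test over whole areas. The edgeR quasi-likelihood test called 0 of 10 members and 0 of 15609 genes (0%), with 2 members and 930 genes at an unadjusted p under 0.05, and DESeq2 called 0 members and 37 genes. The smallest adjusted p among the members was 0.769. Wif1 was at 5.51 and 5.39 CPM at E14.5 and at 9.33 and 12.8 CPM at E15.5, a log2 difference of 0.96 (SE 0.33, unadjusted p = 0.0197). Sfrp2 was at 195 and 157 CPM and then at 286 and 280 CPM (0.63, SE 0.24, unadjusted p = 0.0314). Dkk1 was at 0.84 and 0.51 CPM and then at 1.53 and 1.28 CPM (1.07, SE 0.48, unadjusted p = 0.0582). For all 3 the later areas lay above the earlier ones, and none passed the correction. Frzb went from 13.9 and 16.1 CPM to 18.9 and 28.3 CPM (0.58, SE 0.31) and Notum from 4.21 and 4.18 CPM to 5.98 and 6.57 CPM (0.52, SE 0.33). Sfrp1 was the 1 member whose E15.5 areas both lay below the E14.5 areas, at 303 and 264 CPM and then 252 and 193 CPM (-0.41, SE 0.26).

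The stages overlapped for the other 4. Sost was at 0.84 and 1.85 CPM and then 2.69 and 1.63 CPM, Sostdc1 at 78.4 and 112 CPM and then 102 and 117 CPM, Dkk2 at 59.0 and 79.2 CPM and then 62.6 and 87.9 CPM, and Dkk3 at 125 and 212 CPM and then 174 and 132 CPM. In all, 6 of 10 members did not overlap between the stages, as did 40.1% of all genes. The median log2 difference of the 10 members was 0.52 and that of all genes tested was -0.0016. Bone and neuron markers differed between the sections of the stages by the values given above, and their part in these differences was not tested.

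**Figure D5:**
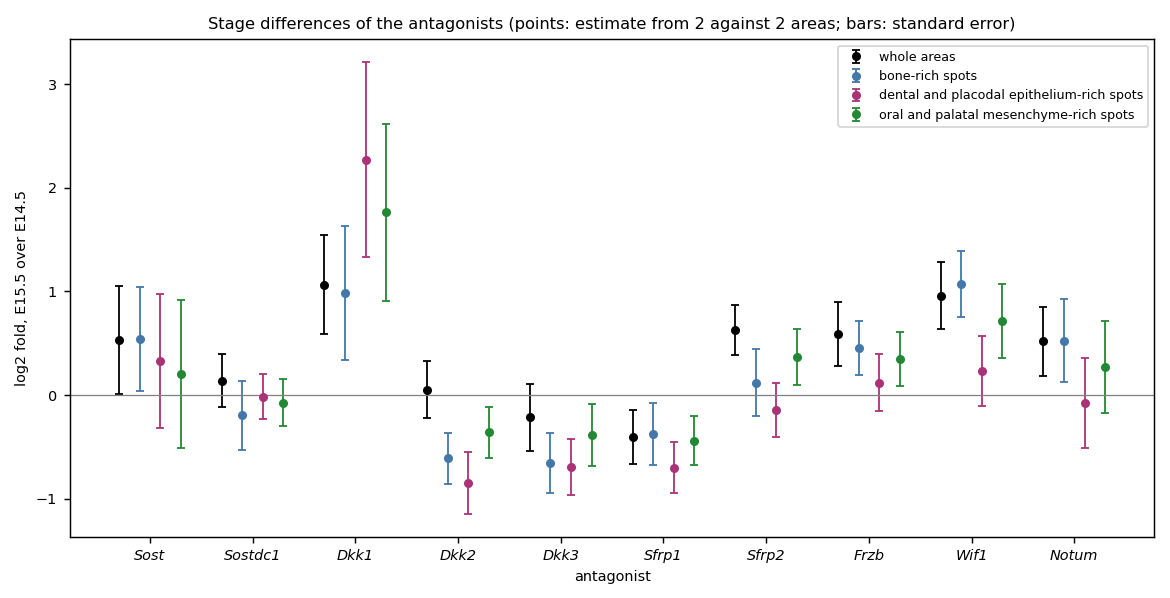
Log2 fold of E15.5 over E14.5 for each antagonist (points) with its standard error (bars), from 2 against 2 capture areas, over whole areas and within spots rich in bone, dental and oral markers. No point passes the adjusted threshold; Dkk1 has the widest bars (estimate 2.27, SE 0.94, in dental-rich spots), and Sostdc1 lies within 0.20 of 0 in all 4 settings.

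Within marker-rich spots no antagonist passed the stage test, and the values did not always follow those of whole areas. Sfrp2, with 0.63 over whole areas, differed by 0.12 (SE 0.32) in bone-rich and by -0.14 (SE 0.26) in dental-rich spots, and Dkk2, with 0.05 over whole areas, by -0.61 and -0.85. The spots were not matched in marker level: the summed bone markers of bone-rich spots were at 4871 and 6557 CPM at E14.5 and at 6336 and 10506 CPM at E15.5, and the part of this in the stage values was not tested. In bone-rich spots 0 of 10 members were called (3 at an unadjusted p under 0.05, 0 by DESeq2) and 0.0075% of 13328 genes (187 genes at an unadjusted p under 0.05). Wif1 was at 19.3 and 14.1 CPM and then 31.2 and 35.5 CPM there (log2 difference 1.07, SE 0.32, unadjusted p = 0.0066), so its stage values did not overlap within bone-rich spots either. The share of all genes without overlap is not given within marker-rich spots. Over whole areas it was 40.1%, so non-overlap of a single member says little. Dkk2 (-0.61, SE 0.25, unadjusted p = 0.032) and Dkk3 (-0.65, SE 0.29, unadjusted p = 0.0467) had values below 0, and the other 7 ranged from -0.38 for Sfrp1 to 0.99 for Dkk1. In dental-rich spots 0 of 10 were called (4 at an unadjusted p under 0.05, 0 by DESeq2) and 0.173% of 13312 genes (479 genes at an unadjusted p under 0.05). There Dkk2 (-0.85, SE 0.30), Dkk3 (-0.70, SE 0.27) and Sfrp1 (-0.70, SE 0.25) had lower levels in both E15.5 areas. Dkk1 was at 1.85 and 0.22 CPM and then 3.27 and 1.57 CPM, on 2, 2, 21 and 16 UMIs. Its stages overlapped, and its log2 difference of 2.27 (SE 0.94) ran from 0.35 to 3.23 with 1 area left out. The remaining members lay between -0.14 for Sfrp2 and 0.33 for Sost. Sostdc1, with the near-equal values given above, differed by -0.01 (SE 0.22). In spots rich in oral and palatal mesenchyme, the tissue of the palatal shelves, 0 of 10 members and 0 of 13522 genes (0%) were called, with 0 members and 154 genes at an unadjusted p under 0.05 and 0 genes by DESeq2. The smallest unadjusted p of a member there was 0.0624, for Dkk1 (1.76, SE 0.85), and the others ran from -0.44 for Sfrp1 to 0.72 for Wif1.

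The last comparison asked whether a difference between places differed between the stages. By edgeR, 0 of 130 pairs had an interaction at an adjusted p under 0.1, against 0.0421% of all gene and list pairs, with 29 pairs at an unadjusted p under 0.05 and 4 called by DESeq2. Of the 29, 27 were below 0, that is, the marker-rich excess was smaller or the deficit larger at E15.5. The share and direction over all gene and list pairs at this unadjusted p are not given, so neither number is read as a trait of the antagonists. The smallest adjusted p was 0.167, for Sfrp2 in surface epidermis (log2 difference of folds -1.0, SE 0.18). The number of pairs at an adjusted p under 0.1, which was 0 with all areas, depended on the areas used. It rose when any 1 area was left out, which leaves 1 area in a stage.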

How the data were processed

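UMI counts per gene and spot were deposited by the authors as raw count matrices of 4 Visium libraries, without normalization. Per the submitters' processing notes they were made with Space Ranger 1.3.1 (replicate 1 areas) or 2.0.0 (replicate 2,3,4 areas) on mm10; the annotation is not given in the sources used here. Here, spots under tissue were kept, UMIs were summed over an area or over its marker-rich and other spots, and the sums were tested by the edgeR 4.0.16 quasi-likelihood test (TMM scaling, filterByExpr) in R 4.3.3, with Benjamini-Hochberg adjustment over all genes within each comparison and a threshold of 0.1, against a log2 fold of 0. P-values were not adjusted over the 13 marker lists. Marker-rich spots were the top 10% of an area's spots by mean z-score of log values of UMIs per 10000. Folds are TMM-scaled and can differ from ratios of the CPM. The sections of an area share 1 library. The rule for named genes was all 10 members in every comparison (members not called are given by name or by the range of their values), with up to 3 most similar genes (mean r of at least 0.3, genes with at least 0.1 UMI a spot in every area) and, of the other pathway genes, those that passed the stage test or else the 2 with the smallest p in each role. In the account of the pathway in marker-rich spots, further pathway genes were named as examples, outside this rule. The members and the marker and pathway lists were chosen with earlier results of these data known. The scripts were tested on simulated data. Alternatives were DESeq2 1.42.0, limma 3.58.1 on sections, other scalings, filters and spot cuts, and leaving out each area. The markers Bglap2, Twist2 and Cyp2g1 and the receptor Fzd5 were not analysed here. Spot scores used python 3.11.15 with numpy 2.4.6. UMI totals of 15438992 to 109127953 an area set the precision; depth limits Sost and Dkk1 most.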

Additional observations from a re-analysis of the deposited data

Results flagged for a closer look

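The matrices of the 2 areas with 3 sections held 19 barcodes outside the tissue, with 209555 UMIs in 8 barcodes at E14.5 and 352936 UMIs in 11 barcodes at E15.5. These barcodes entered no comparison, and 8 antagonists had UMIs in them: 158 of Sfrp1, 136 of Dkk3, 132 of Sfrp2, 78 of Dkk2, 45 of Sostdc1, 7 of Notum, 5 of Wif1 and 4 of Frzb. Sost and Dkk1 had 0. They are listed because they exceed the 3 UMIs that a count of 0 allows. No control barcodes exist, and at this depth a gene of moderate level passes that limit in any case, so nothing is read from the counts. In 20 groups of 4 sections, no section stood apart from the other 3 for any antagonist by Dixon's test, which flags about 1 group in 20 by chance.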

How the results depend on the processing

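Over whole areas, the number of genes called between the stages was 0, but 37 by DESeq2 and between 0 and 78 with 1 area left out (78 without E15.5 replicate 1), with no antagonist called under any setting. Of the pairs of antagonist and marker list, 34 were higher, and 22 to 43 with 1 area left out, the fewest without E14.5 replicate 2,3,4. The interaction with stage was called for 0 pairs, but for 4 by DESeq2, 15 without a filter on low counts, 2 in the top 5% of spots and 2 to 19 with 1 area left out. The causes were not tested, except that leaving out an area leaves 1 sample in a stage, assumed to vary like the others. Nothing in the labels pairs the areas that share a replicate number. The deviations of same-numbered areas from their stage means had a correlation of 0.298. With 2 areas a stage, both replicate numbers give this value by construction, so it is 1 observation and does not settle a pairing. With a replicate block, 0 genes were called between the stages over whole areas, and Sost in oral-rich spots turned to -0.27; without a block in the comparisons of marker-rich spots, no count moved by over 1.5 times.

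Of the called pairs, 6 values reversed: Sfrp2 in olfactory spots (-0.075, top 5% of spots), Sfrp1 in neuron spots (0.089, top 20%) and, with spots ranked by share of UMIs, Sfrp2 (-0.15) and Wif1 (-0.093) in tendon, Sfrp2 in dermis (-0.10) and Dkk3 in meninges (-0.97). Uncalled stage values reversed as follows. Sostdc1 over whole areas was -0.0546 with sections as samples. In dental-rich spots Sostdc1 was 0.021 without TMM and 0.11 in the top 20%, Sfrp2 0.13 in the top 5% and 0.032 in the top 20%, and Notum 0.12 in the top 20%. In oral-rich spots Sost was -0.53 in the top 5% and Sostdc1 0.024 in the top 20%. With 1 area left out the ranges crossed 0 over whole areas for Sostdc1 (-0.13 to 0.47), Dkk2 (-0.19 to 0.33) and Dkk3 (-0.57 to 0.27), in bone-rich spots for Dkk1 (-0.11 to 1.66), Sfrp1 (-0.72 to 0.11), Sfrp2 (-0.30 to 0.64), Sost (-0.071 to 0.98) and Sostdc1 (-0.75 to 0.20), in dental-rich spots for Frzb (-0.19 to 0.37), Notum (-0.70 to 0.39), Sfrp2 (-0.43 to 0.21), Sost (-0.33 to 1.53) and Sostdc1 (-0.046 to 0.031), and in oral-rich spots for Dkk3 (-0.77 to 0.23), Notum (-0.16 to 0.60) and Sost (-1.02 to 0.90).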

Other observations

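Of the other Wnt pathway genes, none passed the stage test over whole areas (0 of 54 by edgeR at an adjusted p under 0.1, 7 at an unadjusted p under 0.05, 0 by DESeq2). The 2 with the smallest p in each role are given here. The ligands were Wnt9a (log2 difference E15.5 over E14.5 of 0.93, SE 0.36) and Wnt7b (-0.78, SE 0.32). The receptors were Lrp5 (0.75, SE 0.25) and Fzd10 (0.79, SE 0.28), and the agonists Rspo1 (0.69, SE 0.31) and Lgr4 (0.47, SE 0.26). The feedback targets were Tcf7 (0.76, SE 0.33) and Lef1 (0.45, SE 0.26). The further genes listed as antagonists were Dkkl1 (1.31, SE 0.43) and Dkk4 (1.31, SE 0.53). Lrp5, the co-receptor that Sost and Dkk1 bind, was at 20.3 and 19.9 CPM at E14.5 and at 33.5 and 37.3 CPM at E15.5.

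In spots rich in surface epidermis markers alone, Notum stood at 6.42, 3.92, 1.35 and 1.38 times its area's level, on 2, 14, 10 and 15 UMIs, and over all epidermis-rich spots it was not called. The share of spots with at least 1 UMI of Frzb was lowest in the shallow area, at 13.3%, 29.0%, 43.2% and 42.9% as deposited, and 5.94%, 4.55%, 5.14% and 6.51% after thinning every spot to 3000 UMIs, in the order of areas used above. Thinning left out 356, 277, 3 and 4 shallower spots.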
